A study of Homo sapiens with 8 samples.

Results

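AP-1 is the family of dimeric basic leucine zipper transcription factors built from JUN and FOS proteins, and 10 of its genes were followed here: JUN, JUNB, JUND, FOS, FOSB, FOSL1, FOSL2, MAFF, BATF3 and JDP2. They are the rows of the count table whose Ensembl identifiers carry these symbols in GENCODE 44, 10 of the 60676 rows, and all 10 had enough reads to be among the 16680 genes tested. RNA was sequenced from 8 samples of the human neuroblastoma (NB) line IGR-N91, grown as aggregates in hanging drops. Aggregates were kept in control medium (2 libraries) or exposed to medium conditioned by ganglia explanted from embryos: sympathetic ganglia of the chick at E8 (E8-cSGcm, 2 libraries), dorsal root ganglia of the chick at E8 (E8-cDRGcm, 2 libraries) or sympathetic ganglia of the mouse at E15.5 (E15.5-mSGcm, 2 libraries). All groups thus share the cell line and the hanging-drop culture, and the groups differ in the medium. The exposure is 20 h in the labels of the libraries and 24 h in the design text. Nothing in the labels states that the 2 libraries of a group came from separate cultures, so that p-values measure the spread between these libraries, which may be technical.

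JUN proteins pair with each other or with FOS proteins, and the dimers bind the TPA response element (TRE) or the cAMP response element (CRE) in promoters and enhancers. FOS proteins do not form stable pairs among themselves. The small MAF protein MAFF, BATF3 and JDP2 lack the long activation domains of JUN and FOS and act mostly as partners or repressors at such sites. FOS, FOSB, JUN and JUNB are classic immediate early genes, which growth factors and stress induce within minutes through MAP kinases and which usually decline again within hours, while FOSL1 and FOSL2 tend to respond later and longer. In NB, AP-1 activity is best known from the mesenchymal cell state, as opposed to the noradrenergic state with its HAND and GATA3 circuit.

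JUN and JUNB were called higher in E15.5-mSGcm, and FOS and FOSL2 in E8-cDRGcm. The 250 bases before the transcription start of these 4 genes are shown because they are the members called against control medium for which the RefSeq promoter table (GRCh38.p14) had an entry. Capitals mark letters searched on both strands: TGANTCA (TRE), TGACGTCA (CRE), its first 6 letters TGACGT, TGACATCA and TTACCTCA (both CRE-like), TATAAA, and the CArG box, which serum response factor binds. The sequences are written 5′ to 3′ in the direction of transcription. JUN lies on the minus strand (chr1:58784048-58784297), and JUNB (chr19:12791236-12791485), FOS (chr14:75278578-75278827) and FOSL2 (chr2:28392608-28392857) lie on the plus strand.
JUN: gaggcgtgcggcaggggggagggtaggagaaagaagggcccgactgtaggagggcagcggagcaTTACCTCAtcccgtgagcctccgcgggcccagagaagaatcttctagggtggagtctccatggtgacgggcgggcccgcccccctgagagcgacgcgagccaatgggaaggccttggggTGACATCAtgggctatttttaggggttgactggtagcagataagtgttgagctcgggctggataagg
JUNB: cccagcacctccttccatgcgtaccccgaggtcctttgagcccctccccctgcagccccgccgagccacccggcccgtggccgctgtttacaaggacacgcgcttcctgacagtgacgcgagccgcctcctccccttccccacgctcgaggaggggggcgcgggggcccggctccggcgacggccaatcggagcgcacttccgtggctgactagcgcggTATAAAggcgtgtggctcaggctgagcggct
FOS: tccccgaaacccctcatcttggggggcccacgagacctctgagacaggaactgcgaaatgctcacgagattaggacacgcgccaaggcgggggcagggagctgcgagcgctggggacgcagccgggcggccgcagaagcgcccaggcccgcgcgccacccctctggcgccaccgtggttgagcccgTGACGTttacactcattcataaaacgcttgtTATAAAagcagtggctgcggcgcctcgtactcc
FOSL2: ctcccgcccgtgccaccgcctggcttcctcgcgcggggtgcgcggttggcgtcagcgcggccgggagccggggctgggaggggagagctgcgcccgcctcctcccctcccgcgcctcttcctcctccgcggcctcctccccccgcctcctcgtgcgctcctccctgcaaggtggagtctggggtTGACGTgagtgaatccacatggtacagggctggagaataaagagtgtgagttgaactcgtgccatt

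In the JUN window, TTACCTCA lay 186 to 179 bases and TGACATCA 67 to 60 bases before the start. These letters occur in 0.644% and 2.37% of the 35116 promoter windows of the table. The letters TGACGT, which are also the first 6 of every CRE, began 64 bases before the start of FOS and 66 bases before that of FOSL2. They were also found 60 bases before FOSB, 54 bases before MAFF and 200 bases before JUND, so that 5 of the 8 members with an entry held them, against 7.1% of all windows. In MAFF and at this site of JUND they were part of a whole CRE, which 1.65% of all windows hold. JUND also held them outside its CRE, on the opposite strand 87 to 82 bases before the start. TATAAA stood 31 to 26 bases before JUNB, 33 to 28 bases before FOS and 30 to 25 bases before FOSB, and 10.7% of all windows hold it. No TRE (6.57% of all windows) and no CArG box (1.16%) was found in the 8 windows, which says only that these letters are not in these 250 bases. TGACGT, TTACCTCA and TATAAA were added to the search after the sequences had been looked at. FOSL1 and BATF3 had no entry.

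Library totals ranged from 7930765 to 15060744 counts, with 7930765 and 8937397 in E15.5-mSGcm and at least 12286211 elsewhere. A floor of 3 counts corresponded to 0.197 to 0.384 CPM (counts scaled to library size with TMM factors) and reflects counting error alone, because no molecular identifiers mark which reads are copies of 1 molecule. The 7 noradrenergic markers used for the cell line (PHOX2A, HAND1, HAND2, GATA3, TH, DBH and MYCN) were all detected and tested. Their summed level was 5857 to 5936 CPM in control medium, 4329 to 4600 in E8-cSGcm, 3469 to 3586 in E8-cDRGcm and 3459 to 3612 in E15.5-mSGcm. MYCN made up most of each sum, at 4671 and 4602 CPM in control medium and 2429 and 2554 in E8-cDRGcm. Called lower were HAND1 and DBH in E8-cSGcm, PHOX2A, HAND1, DBH and MYCN in E8-cDRGcm, and HAND1, TH and MYCN in E15.5-mSGcm. HAND2 did not fall in E8-cDRGcm (log2 fold change 0.01). DBH measured 48.3 and 55.1 CPM in E15.5-mSGcm, above the 37.8 and 37.1 of control medium. The 6 fibroblast markers summed to 157 to 174 CPM in control medium, 212 to 222 in E8-cSGcm, 193 to 200 in E8-cDRGcm and 161 to 174 in E15.5-mSGcm, where COL1A2, DCN, LUM and PDGFRA were called higher and COL1A1 lower. Summed Schwann and glial markers lay at 1.12 to 1.45 CPM in control medium, 2.24 to 2.45 in E8-cSGcm, 2.46 to 4.10 in E8-cDRGcm and 2.43 to 3.31 in E15.5-mSGcm, with SOX10 and FABP7 at 0 in every library. Among them ERBB3 was called higher in E8-cDRGcm (adjusted p = 1.65e-04) and E15.5-mSGcm (adjusted p = 0.00108). Leukocyte markers summed to at most 1.79 CPM and endothelial ones to at most 1.07 CPM, with TYROBP and CDH5 at 0 in every library. The part of these marker levels in the AP-1 results was not tested.

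Levels of different genes were compared per length, as CPM per kb of exon. In control medium JUND was the most abundant member at 93.7 ± 0.249 CPM per kb (mean ± SD, n = 2 libraries in every group). JUNB (25.3 ± 0.0701) and JUN (24.8 ± 1.02) followed and did not differ beyond their spread. FOSL2 (12.4 ± 0.400) and JDP2 (10.98 ± 0.187), the only other members above 1 CPM per kb, came next. FOSL1 (0.981 ± 0.187), MAFF (0.952 ± 0.155) and BATF3 (0.841 ± 0.323) lay within each other's spread, and FOS (0.529 ± 0.166) and FOSB (0.351 ± 0.0284) were at the bottom of the order. The 4 FOS genes together amounted to 14.3 ± 0.392 CPM per kb, of which FOSL2 made up 87.0% ± 0.413, while the 3 JUN genes amounted to 144 ± 1.20 CPM per kb, of which JUND made up 65.2% ± 0.369. The classic immediate early members FOS and FOSB were therefore present at 20 to 28 reads per control library, and their values carry wide intervals.

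A call required an adjusted p below 0.05 together with a change of 1.5-fold or more (edgeR's quasi-likelihood test over the 16680 genes with Benjamini-Hochberg adjustment, the test behind every adjusted p given here unless another is named). Against control medium, 1 of the 10 members was called higher in E8-cSGcm (BATF3), where 4.73% of all tested genes were. In E8-cDRGcm 3 were called higher (FOS, FOSL1 and FOSL2) against a background of 9.81%, and in E15.5-mSGcm 2 (JUN and JUNB) against 6.65%. No member was called lower in any medium, where the background was 3.86%, 10.9% and 7.27% in the same order. At an unadjusted p under 0.05, 2 members were lower in each medium, and DESeq2 also called 0 lower. The share of all tested genes at an unadjusted p under 0.05 was not worked out. Such counts, here and in the lists below, therefore have no background to be read against. By the adjusted p alone, 4 members passed in E8-cSGcm, 5 in E8-cDRGcm and 6 in E15.5-mSGcm, where 31.3%, 49.5% and 37.8% of all genes did. Shares of this size over 10 genes do not set the members apart from the background. The median log2 fold change of the members was -0.00322 in E8-cSGcm, 0.35 in E8-cDRGcm and 0.36 in E15.5-mSGcm, where that of all tested genes was 0.01, 0.00551 and -0.02. The 3 comparisons share the 2 control libraries. Between the media, 3 members were called in E8-cDRGcm against E8-cSGcm (background 7.49%), 2 in E15.5-mSGcm against E8-cSGcm (22.3%) and 4 in E15.5-mSGcm against E8-cDRGcm (26.2%). By the adjusted p alone these were 6, 7 and 6 members, where 30.2%, 49.8% and 52.6% of all genes passed. In these bulk samples, fewer cells of a type and less RNA per cell cannot be told apart.

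**Figure D1:**
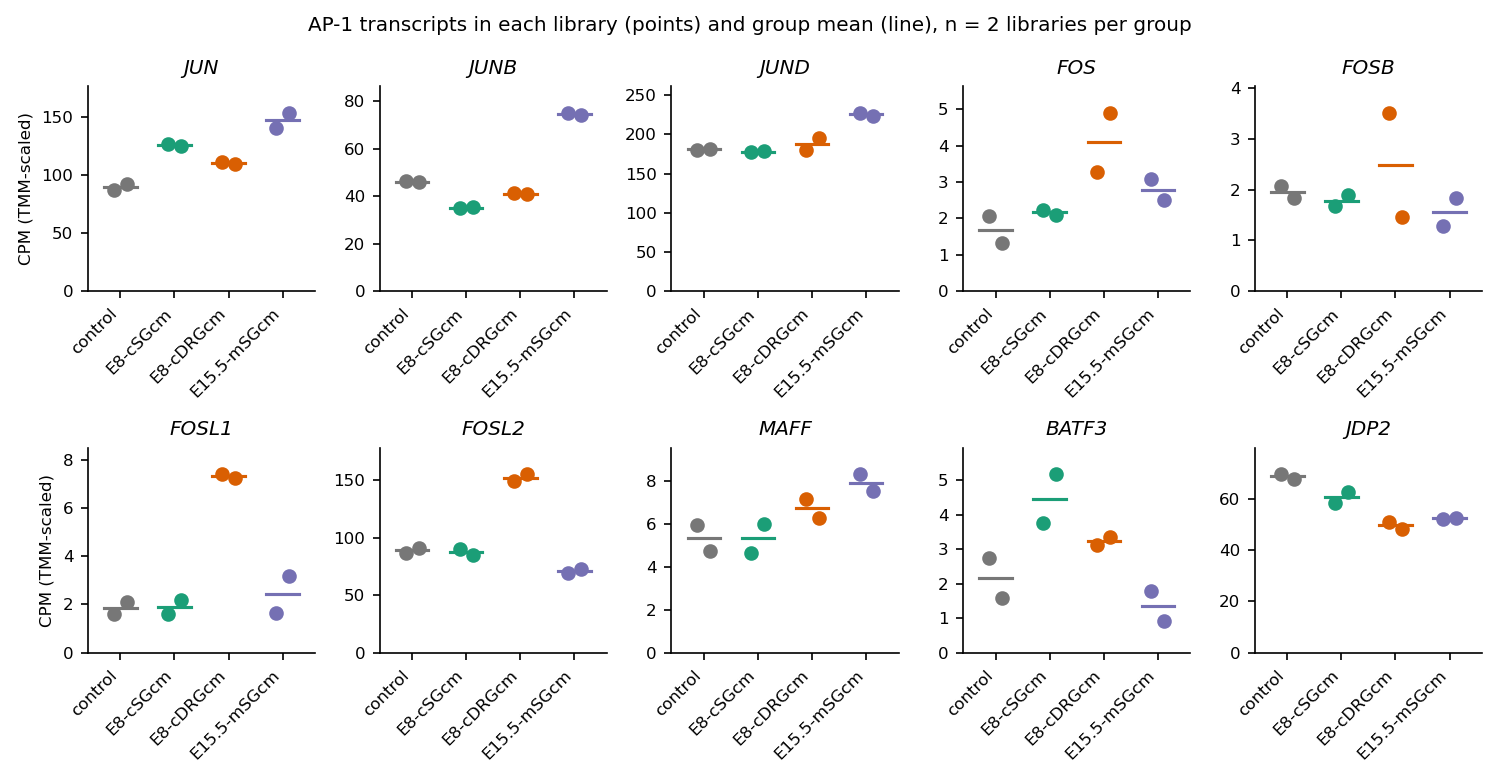
Level of each AP-1 transcript (CPM after TMM scaling, linear axis from 0, a scale of its own for each gene) in the 8 libraries, with points for libraries and a line for the mean of each group of 2. The FOSL1 and FOSL2 points of E8-cDRGcm and the JUNB points of E15.5-mSGcm stand above those of every other group.

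JUN encodes c-Jun, the strongest activator among the JUN proteins and the main substrate of the JNK kinases (ENSG00000177606, GRCh37 chromosome 1, 59242517 to 59249720, minus strand). It measured 87.1 and 92.3 CPM in control medium, 126 and 125 in E8-cSGcm, 111 and 110 in E8-cDRGcm, and 141 and 154 in E15.5-mSGcm. Every conditioned library was above both control libraries, and the groups followed the order control, E8-cDRGcm, E8-cSGcm, E15.5-mSGcm without overlap. The rise was 1.64-fold in E15.5-mSGcm (95% interval 1.51 to 1.78, adjusted p = 2.22e-12). In the other media JUN passed the adjusted p but stayed under the fold criterion, at 1.40-fold in E8-cSGcm (1.29 to 1.52, adjusted p = 2.34e-08) and 1.23-fold in E8-cDRGcm (1.13 to 1.34, adjusted p = 4.83e-05). The difference between E15.5-mSGcm and E8-cSGcm was 1.17-fold (1.08 to 1.27, adjusted p = 0.001), under the fold criterion, so that the rise called in E15.5-mSGcm was not called as different from E8-cSGcm.

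JUNB, a JUN protein with weaker transactivation that can oppose c-Jun (ENSG00000171223, GRCh37 chromosome 19, 12902300 to 12904129, plus strand), went in different directions. It measured 46.3 and 46.2 CPM in control medium, 35.0 and 35.6 in E8-cSGcm, 41.3 and 41.0 in E8-cDRGcm, and 75.2 and 74.1 in E15.5-mSGcm. The replicate libraries of each group were nearly equal, and the E15.5-mSGcm values lay far above all the others. JUNB rose 1.61-fold in E15.5-mSGcm (1.46 to 1.79, adjusted p = 6.44e-10). In that medium 4 of the 6 fibroblast markers and ERBB3 were also called higher, and COL1A1 was called lower. The fibroblast sum was 161 to 174 CPM there and 157 to 174 in control medium. ERBB3 was called higher in E8-cDRGcm too, where JUNB did not rise. The part of these markers in the JUNB values was not tested. In E8-cSGcm JUNB was 1.31-fold below control (adjusted p = 8.89e-05), under the fold criterion. In E8-cDRGcm the difference did not pass the test (adjusted p = 0.0543). JUNB was 2.11-fold higher in E15.5-mSGcm than in E8-cSGcm (1.90 to 2.35, adjusted p = 9.67e-15) and 1.81-fold higher than in E8-cDRGcm (1.64 to 2.01, adjusted p = 1.49e-12). JUNB shares 259 exonic bases with HOOK2 on the opposite strand, and the strand setting of the read counting is not given in the sources used here. HOOK2 itself lay between 23.4 and 28.7 CPM in all libraries.

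JUND, the JUN protein that is expressed constitutively in most tissues (ENSG00000130522, GRCh37 chromosome 19, 18390504 to 18392432, minus strand), moved least among the JUN genes. It measured 180 and 181 CPM in control medium, 177 and 179 in E8-cSGcm, 180 and 196 in E8-cDRGcm, and 228 and 224 in E15.5-mSGcm. The E15.5-mSGcm values lay above those of all other groups, at 1.25-fold over control (1.16 to 1.34, adjusted p = 6.55e-06), under the fold criterion. The E8-cSGcm values lay below both control values by a difference that did not pass (1.02-fold, adjusted p = 0.803). The sum of the 3 JUN genes per length was 144 ± 1.20 CPM per kb in control medium, 146 ± 0.800 in E8-cSGcm, 150 ± 5.33 in E8-cDRGcm and 198 ± 0.768 in E15.5-mSGcm. Within that sum JUN grew from 17.2% ± 0.564 in control medium to 23.7% ± 0.342 in E8-cSGcm as JUNB went from 17.6% ± 0.195 to 13.2% ± 0.0865. In E15.5-mSGcm the share of JUND was 59.0% ± 0.881, while JUN and JUNB took 20.5% ± 1.17 and 20.6% ± 0.288.

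**Figure D2:**
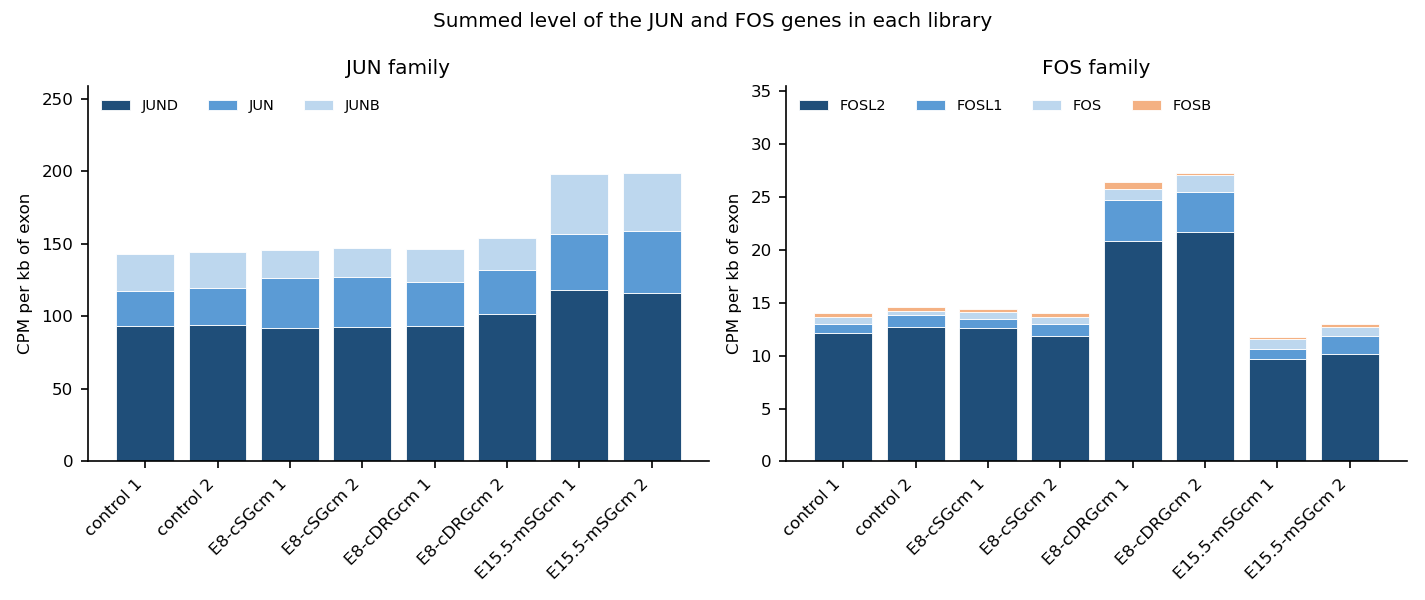
Stacked level per length (CPM per kb of exon, linear axes from 0) of the 3 JUN genes on the left and the 4 FOS genes on the right in each library. The JUN sum is near 144 to 150 CPM per kb except in E15.5-mSGcm, where it is 198, and the FOS sum is 26.8 CPM per kb in E8-cDRGcm against 12.4 to 14.3 in the other groups.

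FOS, the prototype immediate early gene, encodes c-Fos (ENSG00000170345, GRCh37 chromosome 14, 75745529 to 75748933, plus strand). Its counts were 27 and 20 reads in control medium, 28 and 30 in E8-cSGcm, 44 and 67 in E8-cDRGcm, and 24 and 22 in the shallower E15.5-mSGcm libraries. As CPM these were 2.06 and 1.31 in control medium, 2.24 and 2.10 in E8-cSGcm, 3.29 and 4.90 in E8-cDRGcm, and 3.07 and 2.51 in E15.5-mSGcm. The E8-cDRGcm libraries were above all the others but also far from each other. FOS rose 2.45-fold in E8-cDRGcm (1.65 to 3.65, adjusted p = 2.05e-04), a call kept in 16 of 16 alternative settings. In E15.5-mSGcm it was 1.66-fold over control with an interval of 1.04 to 2.67 and did not pass (adjusted p = 0.0826). Without control replicate 1 it did (log2 fold change 1.07, adjusted p = 0.0489). FOS was 1.89-fold higher in E8-cDRGcm than in E8-cSGcm (1.29 to 2.76, adjusted p = 0.00861). That call was lost without E8-cDRGcm replicate 2 (log2 difference 0.60, adjusted p = 0.224), without E8-cSGcm replicate 2 (adjusted p = 0.0664), with all libraries thinned to the smallest total (adjusted p = 0.0623) and with DESeq2 (adjusted p = 0.12).

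FOSB, an immediate early FOS gene known for its long-lived splice form in neurons (ENSG00000125740, GRCh37 chromosome 19, 45971253 to 45978437, plus strand), passed in no comparison. It measured 2.06 and 1.84 CPM in control medium, 1.68 and 1.89 in E8-cSGcm, 3.51 and 1.46 in E8-cDRGcm, and 1.28 and 1.82 in E15.5-mSGcm. The E8-cDRGcm libraries lay on either side of the control libraries. Its interval there ran from 0.807-fold to 2.01-fold, so that a change of the size seen for FOSL2 cannot be told from none at 20 to 47 reads. Without E8-cDRGcm replicate 2 the log2 fold change was 0.85 (adjusted p = 0.0394), and without replicate 1 it was -0.41 (adjusted p = 0.459).

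FOSL1 encodes Fra-1, an AP-1 subunit tied to migration and invasion in many carcinomas (ENSG00000175592, GRCh37 chromosome 11, 65659520 to 65668044, minus strand). It measured 1.60 and 2.10 CPM in control medium, 1.60 and 2.17 in E8-cSGcm, 7.39 and 7.24 in E8-cDRGcm, and 1.66 and 3.19 in E15.5-mSGcm. The E8-cDRGcm libraries, with 99 reads each, stood alone above the remaining libraries with 13 to 32 reads. FOSL1 rose 3.90-fold, the largest fold change against control among the members (interval 2.78 to 5.47, adjusted p = 1.2e-08), and the call held in 16 of 16 alternative settings. The level in E8-cDRGcm was also 3.83-fold that in E8-cSGcm (2.72 to 5.40, adjusted p = 8.29e-08), and the level in E15.5-mSGcm was 2.96-fold below it (adjusted p = 3.53e-06).

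FOSL2 encodes Fra-2 and was the dominant FOS gene in every group (ENSG00000075426, GRCh37 chromosome 2, 28615315 to 28640184, plus strand). It measured 86.9 and 91.0 CPM in control medium, 90.1 and 84.9 in E8-cSGcm, 149 and 155 in E8-cDRGcm, and 69.6 and 73.1 in E15.5-mSGcm. E8-cSGcm overlapped control medium, E8-cDRGcm lay wholly above it and E15.5-mSGcm wholly below. FOSL2 rose 1.71-fold in E8-cDRGcm (1.58 to 1.85, adjusted p = 4.02e-14). In E15.5-mSGcm it was 1.25-fold below control (adjusted p = 1.51e-04), under the fold criterion. E8-cDRGcm exceeded E8-cSGcm by 1.74-fold (1.60 to 1.88, adjusted p = 1.92e-13), and E15.5-mSGcm was 2.13-fold below E8-cDRGcm (adjusted p = 1.88e-17). Summed per length, the 4 FOS genes reached 26.8 ± 0.655 CPM per kb in E8-cDRGcm, against 14.2 ± 0.307 in E8-cSGcm and 12.4 ± 0.867 in E15.5-mSGcm. Within the sum the share of FOSL1 was 6.86% ± 1.12 in control medium and 14.5% ± 0.565 in E8-cDRGcm, and that of FOSL2 87.0% ± 0.413 and 79.1% ± 0.359. The noradrenergic marker sum, most of it MYCN, was also lower in E8-cDRGcm than in control medium, with 4 of the 7 markers called lower. Of the fibroblast markers DCN was called lower there (adjusted p = 0.0383), a call lost with DESeq2 (0.15) and without control replicate 1 (0.0997), control replicate 2 (0.117) or E8-cDRGcm replicate 1 (0.325), and COL1A1 was 1.38-fold higher (adjusted p = 1.4e-06), under the fold criterion. The glial marker ERBB3 rose 3.40-fold, from 12 and 9 reads in control medium to 26 and 43 (adjusted p = 1.65e-04). The part of these markers in the rise of the FOS genes was not tested.

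**Figure D3:**
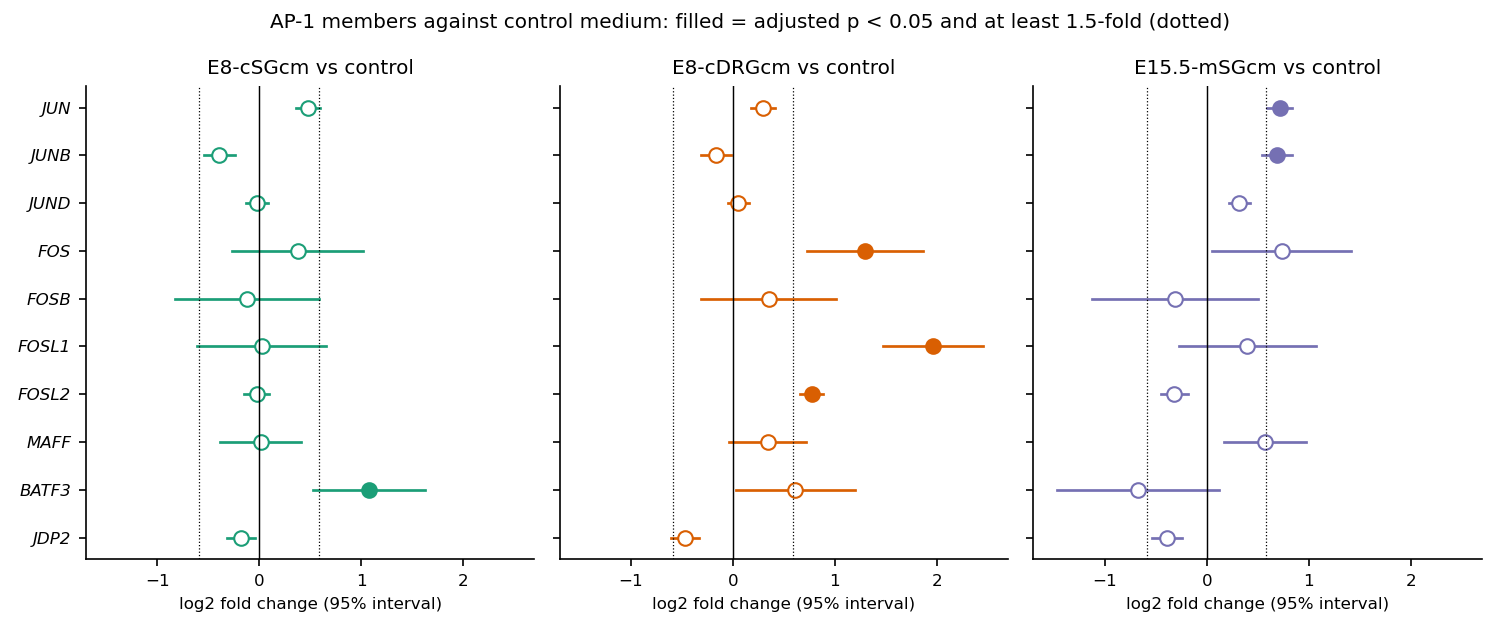
Log2 fold change of each member against control medium with its 95% interval, in a panel for each conditioned medium. Filled points are called (adjusted p under 0.05 and at least 1.5-fold, the dotted lines): BATF3 in E8-cSGcm, FOS, FOSL1 and FOSL2 in E8-cDRGcm, and JUN and JUNB in E15.5-mSGcm.

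Among the partners without a long activation domain, MAFF, a small MAF protein that dimerises with itself or with CNC factors such as NFE2L2 (ENSG00000185022, GRCh37 chromosome 22, 38596774 to 38612514, plus strand), lay close to the threshold. It measured 5.95 and 4.73 CPM in control medium, 4.64 and 6.01 in E8-cSGcm, 7.17 and 6.29 in E8-cDRGcm, and 8.31 and 7.53 in E15.5-mSGcm. Both E15.5-mSGcm libraries were above both control libraries, at 1.49-fold (1.12 to 1.97, adjusted p = 0.0212). The fold criterion was thus missed narrowly and was met with RLE size factors, with only the libraries compared, with thinned libraries and without control replicate 1 (log2 fold changes of 0.59, 0.59, 0.69 and 0.73). MAFF shares 326 exonic bases with PLA2G6 on the opposite strand, which lay between 4.86 and 7.61 CPM and passed in no medium.

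BATF3 pairs with JUN proteins and is best known from dendritic cells (ENSG00000123685, GRCh37 chromosome 1, 212859759 to 212873182, minus strand). Its counts were 36 and 24 reads in control medium, 47 and 74 in E8-cSGcm, 42 and 46 in E8-cDRGcm, and 14 and 8 in E15.5-mSGcm. As CPM these were 2.75 and 1.58 in control medium, 3.76 and 5.17 in E8-cSGcm, 3.14 and 3.36 in E8-cDRGcm, and 1.79 and 0.912 in E15.5-mSGcm. The E8-cSGcm libraries were the highest and the E15.5-mSGcm libraries overlapped control medium. BATF3 rose 2.11-fold in E8-cSGcm (1.44 to 3.09, adjusted p = 0.00213). The call was lost without control replicate 2 (log2 fold change 0.71, adjusted p = 0.106), without E8-cSGcm replicate 2 (0.82, adjusted p = 0.0757) and with DESeq2 (1.05, adjusted p = 0.0671). In E8-cDRGcm both libraries were above both control libraries, at 1.53-fold with an interval of 1.02 to 2.29, which did not pass (adjusted p = 0.0767). Without control replicate 1 it did (log2 fold change 1.04, adjusted p = 0.0183). Between media, BATF3 in E15.5-mSGcm was 3.37-fold below E8-cSGcm (adjusted p = 5.49e-05), a call kept in 15 of 15 alternative settings. It was 2.44-fold below E8-cDRGcm (adjusted p = 0.00315), which was lost without E15.5-mSGcm replicate 2 (log2 difference -0.86, adjusted p = 0.109). Leukocyte markers summed to 0.687 to 0.919 CPM in control medium and 0 to 0.559 in E8-cSGcm. The sum was 0.523 to 1.02 CPM in E8-cDRGcm and 0.798 to 1.79 in E15.5-mSGcm. The part of such cells in the BATF3 values was not tested.

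JDP2, a repressor that binds JUN proteins and CRE or TRE sites (ENSG00000140044, GRCh37 chromosome 14, 75894419 to 75940814, plus strand), was below control in every conditioned medium without reaching the fold criterion. It measured 69.5 and 67.9 CPM in control medium, 58.3 and 62.8 in E8-cSGcm, 51.1 and 48.3 in E8-cDRGcm, and 51.9 and 52.7 in E15.5-mSGcm. No conditioned library reached a control library. The difference was 1.13-fold in E8-cSGcm (adjusted p = 0.0369), 1.38-fold in E8-cDRGcm (adjusted p = 4.13e-07) and 1.31-fold in E15.5-mSGcm (adjusted p = 4.4e-05). JDP2 shares 26 exonic bases with the antisense transcript JDP2-AS1, which measured 3.51 and 2.49 CPM in control medium and 1.34 and 1.24 CPM in E8-cDRGcm (log2 fold change -1.20, adjusted p = 0.00144).

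Over the 8 libraries, the members fell into loose groups. The highest Pearson correlations of log2 CPM were 0.921 between JUNB and JUND and 0.853 between FOSL1 and FOSL2, and the lowest were -0.878 between FOS and JDP2 and -0.855 between JUNB and BATF3. JUN and FOSL1 were at -0.001. These values describe 8 points from 4 media that share depth and group differences. Among 11419 tested genes of at least 5 CPM on average, the genes most like JUN were MTSS1 (r = 0.991) and SNAI2 (0.974), and those most like JUNB were DDX3X (0.996) and LTBP1 (0.994). Those most like FOSL2 were KIF4A (0.993) and HOXB2 (0.991), and those most like FOSL1 were the pseudogene UBE2D3P1 (0.978), whose reads cannot be told from its parent gene with certainty, and FNBP1 (0.976). FOS was followed by YME1L1 (0.966) and ICA1L (0.965), and NIT1 (0.977) is given for BATF3.

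Of 7 further small MAF, BATF and ATF genes (MAFG, MAFK, BATF, BATF2, ATF2, ATF3 and ATF7), 5 were tested, with median log2 fold changes of 0.05, 0.21 and -0.00549 in E8-cSGcm, E8-cDRGcm and E15.5-mSGcm. ATF3, a stress-induced partner of JUN proteins, measured 29.1 and 24.7 CPM in control medium and fell in E8-cSGcm to 13.7 and 16.3 (log2 fold change -0.83, adjusted p = 1.74e-07) and in E15.5-mSGcm to 15.7 and 16.4 (-0.73, adjusted p = 5.85e-06). In E8-cDRGcm ATF3 measured 18.1 and 20.3 CPM, 1.40-fold below control (adjusted p = 2.13e-04), under the fold criterion. It met that criterion there without control replicate 2 (log2 fold change -0.60). Also under the fold criterion, ATF7 was 1.41-fold above control in E8-cDRGcm (adjusted p = 1.16e-05) and ATF2 1.16-fold (adjusted p = 0.00414). In E15.5-mSGcm ATF2 was 1.34-fold (adjusted p = 1.18e-06) and MAFG 1.26-fold (adjusted p = 2.77e-04) above control. The remaining calls were those of MAFK, the small MAF nearest in kind to MAFF. MAFK rose from 2 and 5 reads in control medium to 13 and 15 in E8-cSGcm (adjusted p = 0.00745) and 11 and 15 in E8-cDRGcm (adjusted p = 0.00785). Both MAFK calls were lost without control replicate 1 (adjusted p = 0.0907 and 0.088), and that in E8-cDRGcm also without E8-cDRGcm replicate 2 (adjusted p = 0.0816) and with DESeq2 (adjusted p = 0.0991), which gave MAFK no adjusted p in E8-cSGcm. Of the CNC and BACH partners of the small MAFs, 5 of 6 were tested, with medians of 0.60, 0.51 and 0.28. BACH2, a transcriptional repressor, rose in all 3 media, by log2 fold changes of 0.66, 0.80 and 0.79 (adjusted p = 4.03e-04, 9.45e-06 and 8.19e-05 in E8-cSGcm, E8-cDRGcm and E15.5-mSGcm). NFE2L1, an activator of proteasome genes, rose from 286 and 274 CPM in control medium to 423 and 426 in E8-cSGcm (0.60, adjusted p = 5.07e-12) and to 563 and 530 in E8-cDRGcm (0.97, adjusted p = 1.68e-18). In E8-cSGcm the fold criterion was missed by NFE2L1 without control replicate 2 and by BACH2 without E8-cSGcm replicate 1, with log2 fold changes of 0.57 and 0.58.

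Upstream of AP-1, the MAP kinases and the ternary complex factors (15 genes, all tested) gave 0 calls in E8-cSGcm, 1 higher in E8-cDRGcm and 1 lower in E15.5-mSGcm, with median log2 fold changes of -0.00405, 0.06 and -0.02. Among all tested genes, 4.73% were called higher and 3.86% lower in E8-cSGcm, 9.81% and 10.9% in E8-cDRGcm, and 6.65% and 7.27% in E15.5-mSGcm. At an unadjusted p under 0.05, 3 of the 15 were higher and 3 lower in E8-cSGcm, where DESeq2 also called 0. MAP2K1, the kinase MEK1, measured 53.9 and 48.7 CPM in control medium and rose in E8-cDRGcm to 85.3 and 82.3 (log2 fold change 0.71, adjusted p = 2.75e-11). Under the fold criterion, MAP2K1 was 1.40-fold above control in E8-cSGcm (adjusted p = 5.42e-07) and 1.14-fold in E15.5-mSGcm (adjusted p = 0.0483). MAP3K1, an activator of the JNK pathway, measured 371 CPM in both control libraries and fell in E15.5-mSGcm to 230 and 227 (-0.70, adjusted p = 2.45e-14). It was also below control in E8-cSGcm, at 248 and 248 CPM (1.49-fold, adjusted p = 3.53e-12), and in E8-cDRGcm, at 257 and 264 CPM (1.42-fold, adjusted p = 1.83e-11), under the fold criterion, which it met in E8-cSGcm with RLE size factors and with thinned libraries. Transcript levels do not show kinase activity, which was not measured. The genes that set the turnover of JUN and FOS proteins (FBXW7, COP1, DET1, ITCH, TRIB1, USP28 and COPS5) gave 0 calls of 7 in every medium with edgeR and with DESeq2. At an unadjusted p under 0.05 there were 4 of 7 in E8-cSGcm, 4 in E8-cDRGcm and 3 in E15.5-mSGcm. FBXW7 was below control in every medium, under the fold criterion. Its log2 fold changes were -0.49 in E8-cSGcm (adjusted p = 9.04e-09), -0.38 in E8-cDRGcm (4.55e-07) and -0.39 in E15.5-mSGcm (1.24e-06). By the adjusted p alone, ITCH was lower in E8-cSGcm (-0.36) and E8-cDRGcm (-0.21) and higher in E15.5-mSGcm (0.17). In the same way USP28 was higher in E8-cSGcm (0.33) and E8-cDRGcm (0.45), and COP1 in E8-cDRGcm (0.26) and E15.5-mSGcm (0.22).

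Of 20 other early response genes 13 were tested, with median log2 fold changes of 0.21, 0.40 and -0.15 in E8-cSGcm, E8-cDRGcm and E15.5-mSGcm. Of these, 3 rose and 2 fell in E8-cSGcm, 5 rose and 0 fell in E8-cDRGcm, and 3 rose and 2 fell in E15.5-mSGcm. Over all tested genes 4.73% were called higher and 3.86% lower in E8-cSGcm, 9.81% and 10.9% in E8-cDRGcm, and 6.65% and 7.27% in E15.5-mSGcm. At an unadjusted p under 0.05, 3 of the 13 were lower in E8-cDRGcm, and DESeq2 called 0 lower. ZFP36, which drives the decay of AU-rich mRNAs, measured 5.27 and 6.50 CPM in control medium and rose to 12.2 and 8.67 in E8-cSGcm, 21.4 and 18.9 in E8-cDRGcm, and 12.3 and 15.2 in E15.5-mSGcm (log2 fold changes 0.80, 1.76 and 1.22). NR4A3, an orphan nuclear receptor, went from 1.68 and 1.38 CPM to 4.48 and 4.54 in E8-cSGcm (1.57, adjusted p = 1.38e-05) and to 7.99 and 8.85 in E8-cDRGcm (2.46, adjusted p = 3.86e-11). PPP1R15A, the GADD34 subunit that reverses the stress block on translation, rose from 27.2 and 25.01 CPM to 82.1 and 75.0 in E8-cDRGcm (1.59, adjusted p = 4.77e-19). DUSP1, a phosphatase of MAP kinases, rose in E15.5-mSGcm from 9.85 and 9.65 CPM in control medium to 21.1 and 24.3 (1.22, adjusted p = 1.02e-09). EGR1, which is induced with FOS in many settings, measured 9.08 and 7.02 CPM in control medium and fell in E8-cSGcm to 4.00 and 3.77 (-1.04, adjusted p = 4.34e-05). EGR1 also fell in E15.5-mSGcm (-0.71, adjusted p = 0.00527), a call lost with DESeq2 (adjusted p = 0.0679), without control replicate 1 (0.095) and without E15.5-mSGcm replicate 2 (0.0669). ARC, a synaptic early gene, fell in E8-cSGcm and E15.5-mSGcm (-0.64 and -0.88, adjusted p = 4.34e-08 and 3.07e-10). In E8-cDRGcm ARC was 1.35-fold below control (adjusted p = 1.57e-05), under the fold criterion. CCN1, a secreted matrix protein, measured 14 and 12 reads in control medium and 36 and 25 in E8-cSGcm (adjusted p = 0.00521). That call was lost without E8-cSGcm replicate 1 (0.13), without control replicate 2 (0.0799) and with thinned libraries (0.114), and DESeq2 gave CCN1 no adjusted p there. CCN1 was also called higher in E8-cDRGcm, at 33 and 35 reads (log2 fold change 1.44, adjusted p = 9.05e-04). BTG2, an antiproliferative gene, rose in E15.5-mSGcm (0.64, adjusted p = 2.18e-04) and fell under the fold criterion without E15.5-mSGcm replicate 1 (0.53). ZFP36 did the same in E8-cSGcm without E8-cSGcm replicate 1 (0.55).

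Of 21 genes commonly listed as AP-1 targets 14 were tested, with medians of 0.41, 0.35 and -0.05 in the same order, and 2 rose and 1 fell in E8-cSGcm, 4 rose and 1 fell in E8-cDRGcm, and 2 rose and 1 fell in E15.5-mSGcm. The background was again 4.73% called higher and 3.86% lower in E8-cSGcm, 9.81% and 10.9% in E8-cDRGcm, and 6.65% and 7.27% in E15.5-mSGcm. IL11, a cytokine gene with AP-1 sites in its promoter, had 5 and 8 reads in control medium, 11 and 25 in E8-cSGcm, 230 and 229 in E8-cDRGcm, and 0 and 3 in E15.5-mSGcm. Its rise in E8-cDRGcm was 36.2-fold (24.6 to 53.4, adjusted p = 4.2e-18). That in E8-cSGcm (adjusted p = 0.011) was lost without E8-cSGcm replicate 2 (adjusted p = 0.305) and without control replicate 1 (adjusted p = 0.079). HMOX1, which encodes heme oxygenase and is also a target of NFE2L2 and BACH1, went from 2.29 and 1.97 CPM to 5.92 and 5.80 in E8-cSGcm (log2 fold change 1.46, adjusted p = 3.05e-06) and to 10.9 and 13.5 in E8-cDRGcm (2.52, adjusted p = 2.28e-13). Against these, CCND1, the cyclin D1 gene, fell from 1401 and 1427 CPM to 563 and 572 in E8-cSGcm (-1.32, adjusted p = 2.29e-22) and to 357 and 342 in E8-cDRGcm (-2.02, adjusted p = 2.77e-28). In E15.5-mSGcm it measured 981 and 918 CPM, 1.49-fold below control (adjusted p = 1.97e-12), just under the fold criterion, which it met in 5 alternative settings, among them without control, E8-cSGcm or E15.5-mSGcm replicate 1. In E15.5-mSGcm the chemokine gene CCL2 reached 210 and 232 reads, with 2 and 0 in control medium and at most 1 in any E8-cSGcm or E8-cDRGcm library (adjusted p against control = 1.8e-20). PLAU, the urokinase gene, went there from 3 and 1 reads in control medium to 39 and 31 (adjusted p = 4.97e-09). CD44, a hyaluronan receptor and mesenchymal marker, fell in E15.5-mSGcm from 221 and 232 CPM in control medium to 103 and 94.1 (-1.20, adjusted p = 3.61e-19). In E8-cDRGcm CD44 was 1.49-fold below control (adjusted p = 1.13e-11) and met the fold criterion in 4 alternative settings, among them without control replicate 1 or E8-cDRGcm replicate 2. VIM, also a mesenchymal marker, was called higher in E8-cDRGcm, from 551 and 565 CPM in control medium to 860 and 925 (0.68, adjusted p = 1.18e-14). Under the fold criterion, VIM was 1.41-fold above control in E8-cSGcm (adjusted p = 2.26e-10) and 1.11-fold below it in E15.5-mSGcm (adjusted p = 0.0106). Binding of AP-1 proteins to these genes was not measured.

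**Figure D4:**
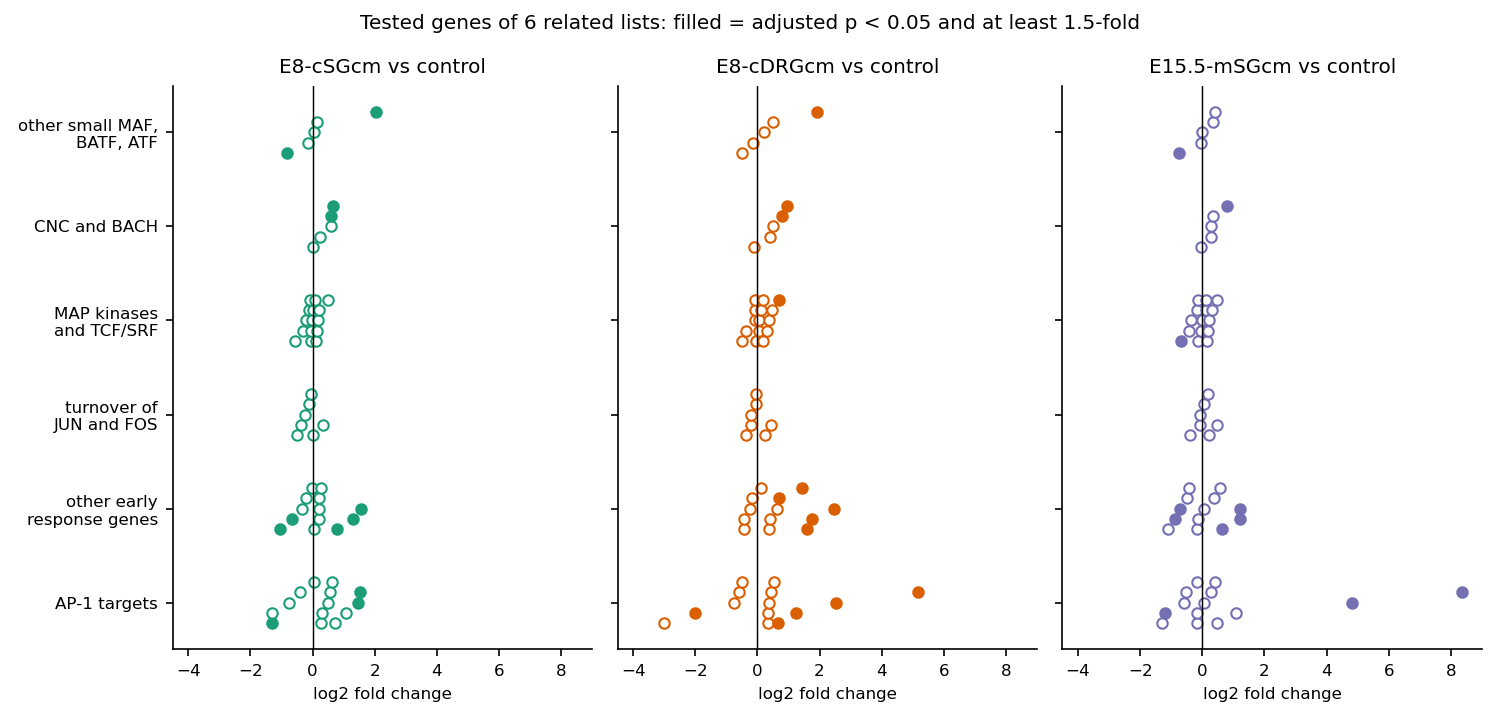
Fitted log2 fold change against control medium of each tested gene in 6 lists of related genes, in a panel for each conditioned medium, with a vertical offset only to separate points and with called genes filled. Most kinase and turnover genes lie near 0, the early response and target genes scatter to both sides, and the 2 points farthest right in E15.5-mSGcm are CCL2 and PLAU, whose control libraries held 0 to 3 reads so that the fitted size is uncertain.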

How the data were processed

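Total RNA of IGR-N91 aggregates was measured in 8 libraries, 2 for each of control medium, E8-cSGcm, E8-cDRGcm and E15.5-mSGcm, and grouped by their labels. The input was 50 ng of RNA and reads were single, of 75 bp, from a stranded kit. Per the submitters' processing notes the authors used bcl2fastq 2.17.1.14, cutadapt 1.9.1, TopHat2 2.1.0 and HTSeq 0.11.3, and they deposited raw counts of reads per Ensembl gene, neither normalized nor filtered. The methods of the study name hg19 and the notes name hg38. The annotation release and the strand option are not given in the sources used here. The count table holds no coordinates, so positions come from GENCODE 44 on GRCh37 and promoters from RefSeq on GRCh38.p14, as annotation only.

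In R 4.3.3, edgeR 4.0.16 was used for scaling (TMM), the filter on low counts (filterByExpr over the groups) and a robust fit for the quasi-likelihood test, on all 8 libraries together, with p-values adjusted over all 16680 tested genes. DESeq2 1.42.0, RLE size factors, library totals alone, minima of 1 count in total or 10 counts per library, fits of only those libraries under comparison, the adjusted p alone, thinning to the smallest total, the replicate number as a block and each library left out were alternatives. Same-numbered libraries did not vary together (correlation of deviations -0.0436 to 0.0420 in 6 pairs of groups), and the main model did not pair them. The labels do not say whether they were prepared together, which this check cannot exclude. Replicate libraries differed by more than counting error (chi-square per gene 1.78 to 3.64). The steps were tested on simulated data. Figures were drawn with matplotlib 3.10.9.

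The members and lists were chosen with earlier results of these data known. Named were all members, the called genes with the 3 largest changes per list and medium, and the 2 genes most like each called member. Calls that changed with the setting, changes of list genes under the fold criterion and the E8-cDRGcm calls of VIM and CCN1 were named after their values were seen. PECAM1 was not matched to a row and was not used here. Some marker genes and 1 of the genes most like a member are not reported here.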

Additional observations from a re-analysis of the deposited data

Results flagged for a closer look

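Between conditioned media, 9 differences of members passed the same test and fold criterion, which 7.49% of all tested genes did for E8-cDRGcm against E8-cSGcm, 22.3% for E15.5-mSGcm against E8-cSGcm and 26.2% for E15.5-mSGcm against E8-cDRGcm. Each is a direct contrast of 2 media, with the control libraries entering only the shared scaling and estimate of the spread.

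JUNB was higher in E15.5-mSGcm than in E8-cSGcm (log2 difference 1.08, adjusted p = 9.67e-15, edgeR quasi-likelihood test) and than in E8-cDRGcm (0.86, adjusted p = 1.49e-12). In E8-cDRGcm against E8-cSGcm, FOS (0.92, adjusted p = 0.00861), FOSL1 (1.94, adjusted p = 8.29e-08) and FOSL2 (0.80, adjusted p = 1.92e-13) were higher. FOSL1 (-1.56, adjusted p = 3.53e-06) and FOSL2 (-1.09, adjusted p = 1.88e-17) were lower in E15.5-mSGcm than in E8-cDRGcm. BATF3 was lower in E15.5-mSGcm than in E8-cSGcm (-1.75, adjusted p = 5.49e-05) and than in E8-cDRGcm (-1.28, adjusted p = 0.00315). In each of the 9 cases both libraries of the higher medium lay above both of the lower. A call made from the same libraries nearly implies this, so that it adds no support. The difference of FOS was lost in 4 of 16 alternative settings and that of BATF3 between E15.5-mSGcm and E8-cDRGcm in 1 of 15, while the other 7 kept their calls in every alternative in which the gene was tested. The E15.5-mSGcm libraries also had the lowest totals, 7930765 and 8937397 counts, and their medium came from mouse rather than chick ganglia, and the part of either in these differences was not tested.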

How the results depend on the processing

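The 3 members called higher in E8-cDRGcm, the 2 in E15.5-mSGcm and their directions held in every alternative run. BATF3 in E8-cSGcm did not: members called higher there numbered 0 with DESeq2, 0 with a minimum of 10 counts per library, which left BATF3 untested, and 0 to 1 with a library left out, with 0 without control replicate 2 and without E8-cSGcm replicate 2. By the adjusted p alone, members called were 2 higher and 2 lower in E8-cSGcm, 4 higher and 1 lower in E8-cDRGcm, 4 higher and 2 lower in E15.5-mSGcm, 6 in E8-cDRGcm against E8-cSGcm, 7 in E15.5-mSGcm against E8-cSGcm and 6 in E15.5-mSGcm against E8-cDRGcm. With the fold criterion and the minimum of 10 counts, members called in E15.5-mSGcm against E8-cSGcm numbered 1 in place of 2, as BATF3 was untested. In E15.5-mSGcm, members called higher were 2 to 4 with a library left out, with 4 (JUN, JUNB, FOS and MAFF) without control replicate 1. With the replicate block, 1 member in E8-cSGcm, 3 in E8-cDRGcm and 2 in E15.5-mSGcm were called higher, 0 lower, and no count of members changed. Signs turned only for changes that were not called. With thinned libraries FOSB was at 0.0896 and FOSL1 at -0.27 in E8-cSGcm, and with DESeq2 MAFF was at -0.000317 there. With a library left out, log2 fold changes ran from -0.22 to 0.24 for FOSL1, -0.0646 to 0.0188 for FOSL2 and -0.19 to 0.18 for MAFF in E8-cSGcm, from -0.00450 to 0.11 for JUND and -0.41 to 0.85 for FOSB in E8-cDRGcm, and from -0.17 to 0.76 for FOSL1 in E15.5-mSGcm. The cause was not tested. FOS, FOSB, FOSL1, MAFF and BATF3 had at most 99 reads in any library, and the part of counting error in their values was not tested. The data of 1 exposure time say nothing of the minutes in which immediate early genes peak.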
